A study of Mus musculus with 13 samples.

Results

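The genes described here are 10 genes of insulin signaling and of the FOXO transcription factors it holds back, out of 57010 genes listed in each RNA-Seq library. They are the FOXO factors Foxo1, Foxo3 and Foxo4, the insulin receptor Insr and its adaptors Irs1 and Irs2, and 4 genes known as FOXO targets or as brakes on the same pathway, Pik3ip1, Txnip, Sesn3 and Ccng2. They are a list of names drawn up with earlier results of these data known. All 10 were matched to gene identifiers through the GRCm39 annotation and passed the filter on low counts that left 15034 genes for testing. RNA came from wild-type mouse embryonic fibroblasts (MEFs), primary cells of minced embryos from which the inner organs had been removed, in 4 groups that each held cells numbered mouse 4, 5 and 6. Control MEFs were untreated, untreated senescent MEFs had been exposed to 2 µM etoposide, a topoisomerase poison that breaks DNA, and the remaining groups were etoposide-induced senescent MEFs given Fucoidan-FV, a sulfated sugar polymer extracted from the seaweed Fucus vesiculosus, at 100 µg/mL or 300 µg/mL for 12 h. Control mouse 5 had 2 libraries, 5(1) and 5(2), which were summed, so 13 libraries gave 3 samples a group. No group of control MEFs given Fucoidan-FV was among the samples, and all groups share the wild-type genotype and serum-containing medium.

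Insulin and the related growth factors bind a receptor at the cell surface, which phosphorylates the adaptors IRS1 and IRS2. These recruit PI3-kinase, whose lipid product activates the kinase AKT, and AKT phosphorylates the FOXO proteins so that they leave the nucleus. When the signal falls, FOXO proteins return to the nucleus and raise genes of starvation, antioxidant defence and growth arrest. Among these genes are parts of the insulin pathway itself, such as Insr and Irs2. The values below are RNA levels, which report neither the phosphorylation nor the location of a FOXO protein. Because the samples are bulk, fewer cells of a type and less RNA per cell cannot be told apart.

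Library totals ran from 22782536 to 31278750 expected counts. Fibroblast markers summed to 30800 to 50200 CPM, a gene's count scaled by the size of its library, with Fn1, which encodes fibronectin, the highest in every group. The senescent label was matched by Cdkn1a, the p21 inhibitor of cell division, at 373 to 527 CPM in the control samples and 1250 to 1870 CPM in the other 9 samples. It was also matched by 10 proliferation markers, which summed to 709 to 1040 CPM in control libraries and 43.5 to 108 CPM in the rest. Among markers of other cell types, the macrophage list summed to at most 14.6 CPM and the adipocyte list to 21.6 to 46.6 CPM. Several lists moved with Fucoidan-FV. Neural markers summed to 34 to 57.0 CPM in senescent libraries, 70.2 to 123 CPM at 100 µg/mL and 69.5 to 99.4 CPM at 300 µg/mL, beside 33.8 to 130 CPM in control ones, and 1 of 3 tested, Map2, rose at both doses against senescent MEFs (adjusted p = 0.00897 and 0.0102). Endothelial markers summed to 1.33 to 1.82 CPM in senescent libraries, 6.41 to 9.53 CPM at 100 µg/mL and 3.94 to 8.57 CPM at 300 µg/mL, with Cldn5 at 0 in all libraries, and 1 of 3 tested, Tek, rose at 100 µg/mL (adjusted p = 0.0446). Skeletal muscle markers summed to 135 to 343 CPM in senescent libraries, 91.1 to 172 CPM at 100 µg/mL and 65.1 to 130 CPM at 300 µg/mL, and neither of the 2 tested passed against senescent MEFs in edgeR, while DESeq2 called 1 lower at 300 µg/mL. Epithelial markers, mainly Krt19, summed to 14.2 to 41.2 CPM in control libraries, 6.91 to 16.7 CPM in senescent ones, 1.75 to 3.64 CPM at 100 µg/mL and 1.79 to 3.10 CPM at 300 µg/mL, and Krt19 fell at both doses against senescent MEFs (adjusted p = 0.00757 and 0.0101). Against control MEFs, Map2, Tek and the macrophage marker Lyz2 rose at both doses at an adjusted p under 0.05 in edgeR. Krt19 and the muscle marker Acta1 fell at both doses by the same threshold, and the adipocyte marker Pparg fell at 100 µg/mL. The part of these other cells in the results below was not tested. Senescent mouse 6 stood somewhat apart, with a median correlation of 0.930 with the other senescent samples over 8625 genes of 4 or more transcripts, against 0.948 and 0.956 for the other two samples. In that sample 7 of the 10 genes were lowest among the 3 senescent samples, as were 36.9% of all genes tested.

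Per length of transcript, Txnip was by far the most abundant of the 10 genes and Foxo1 the least. In control MEFs, in TPM (RSEM's length-scaled abundance), Txnip stood at 111.4 ± 9.04 (SD, n = 3), followed by Ccng2 at 24.7 ± 5.21, Foxo4 at 11.3 ± 1.49, Pik3ip1 at 10.8 ± 1.25, Foxo3 at 8.87 ± 0.976, Sesn3 at 5.75 ± 1.43, Insr at 5.54 ± 2.04, Irs2 at 1.97 ± 1.5, Irs1 at 1.67 ± 0.222 and Foxo1 at 0.605 ± 0.431. The ranges over the 3 mice overlapped between the neighbours Foxo4 and Pik3ip1, Pik3ip1 and Foxo3, Sesn3 and Insr, Insr and Irs2, and Irs2 and Irs1, so these pairs did not differ beyond their spread. At 100 µg/mL Fucoidan-FV the order among the middle genes had changed, with Foxo3 at 35.7 ± 2.54 TPM, Sesn3 at 34.9 ± 7.29 TPM and Pik3ip1 at 33.5 ± 8.54 TPM side by side. Irs1, at 11.4 ± 0.790 TPM, stood well above Irs2 at 3.58 ± 2.30 TPM. TPM divides by a gene length that RSEM estimates anew in every library, which moves the level of a gene with many transcripts, so all tests below were made on counts.

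**Figure D1:**
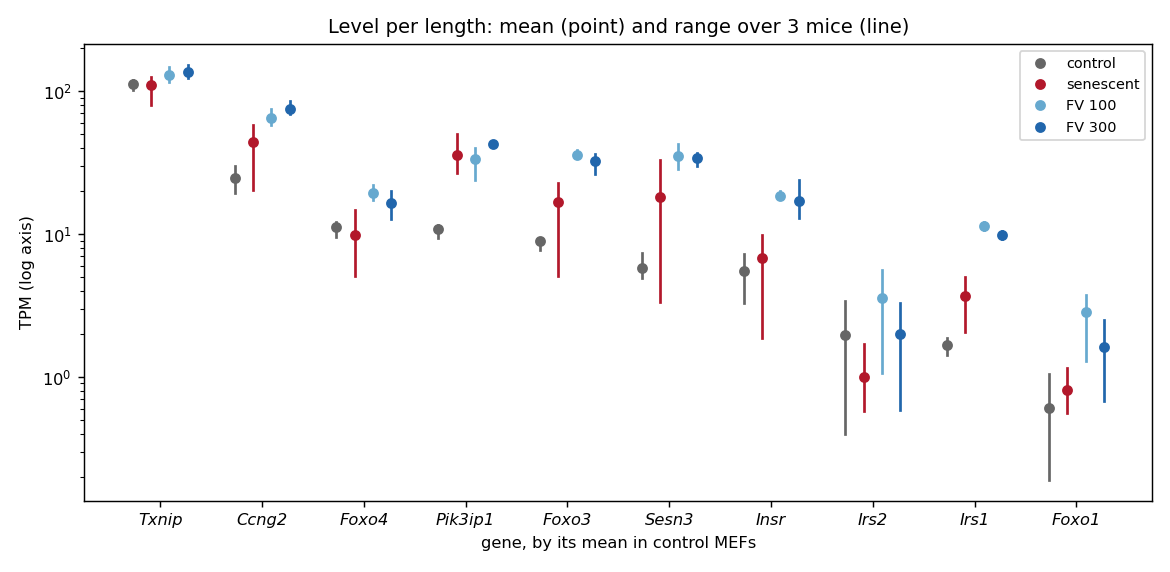
Level of the 10 genes per length (y axis, TPM, log scale) in the 4 groups, with the point at the mean and the line from the lowest to the highest of 3 mice, ordered along the x axis by the mean in control MEFs. The means of Txnip lie between 109.6 and 136.7 TPM, while Irs1, Foxo3 and Sesn3 lie higher in the Fucoidan-FV groups than in control MEFs.

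Of the FOXO factors, Foxo3 rose against control MEFs at both doses of Fucoidan-FV, Foxo1 rose against control MEFs at 100 µg/mL with a wide spread, and Foxo4 passed in no comparison. Foxo3 (chr10:42057837-42154007, minus strand, GRCm39) measured 24.3, 29.3 and 23.3 CPM in control mice 4, 5 and 6, and 60.2, 54.0 and 24.2 CPM in the senescent samples of the same mice. Senescent mice 4 and 5 thus lay well above the control level while senescent mouse 6 lay within it. With 100 µg/mL Fucoidan-FV the values were 83.4, 83.5 and 85.3 CPM, and with 300 µg/mL they were 60.6, 83.0 and 84.7 CPM. Every treated sample exceeded every untreated one, but mouse 4 at 300 µg/mL, at 60.6 CPM, barely exceeded senescent mouse 4, at 60.2 CPM.

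The fitted log2 fold change of Foxo3 was 0.85 ± 0.28 (SE) from control to senescent MEFs (adjusted p = 0.0723, edgeR), 0.87 ± 0.28 from senescent MEFs to 100 µg/mL (adjusted p = 0.104) and 0.72 ± 0.28 to 300 µg/mL (adjusted p = 0.230). None of these steps passed the threshold of an adjusted p of 0.05. Across both steps together, against control MEFs, Foxo3 rose 3.28-fold at 100 µg/mL (adjusted p = 0.000829) and 2.97-fold at 300 µg/mL (adjusted p = 0.00157), and it passed in both comparisons under 17 of 17 alternatives. The senescence step of Foxo3 passed in 4 of 17 alternatives. Of the fits that left out a mouse, only that without senescent mouse 6 called it (log2 fold change 1.16, adjusted p = 0.00192). In that fit 1423 of 15490 genes rose at senescence, beside 918 of 15034 in the main fit. DESeq2, with all samples, called the senescence step (adjusted p = 0.0430) and the step from senescent MEFs to 100 µg/mL (adjusted p = 0.0320).

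Foxo4 (chrX:100298073-100304479, plus strand), the FOXO factor encoded on the X chromosome, had 11.7, 16.4 and 15.5 CPM in control mice 4, 5 and 6 and 15.7, 11.6 and 7.98 CPM in senescent ones. It then measured 16.9, 17.2 and 20.6 CPM at 100 µg/mL and 13.9, 17.6 and 15 CPM at 300 µg/mL. The senescent values reached both below and into the control range, and the samples at 100 µg/mL lay above all senescent samples by a small margin. Foxo4 passed in none of the 6 comparisons, with log2 fold changes of −0.31 ± 0.28 for senescent against control MEFs (adjusted p = 0.571), 0.63 ± 0.28 at 100 µg/mL against senescent MEFs (adjusted p = 0.238) and 0.40 ± 0.28 at 300 µg/mL (adjusted p = 0.568).

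Foxo1 (chr3:52175757-52260642, plus strand), the FOXO factor best known from insulin control of liver glucose output, measured 6.93, 3.57 and 1.32 CPM in control mice 4, 5 and 6, a coefficient of variation of 71.7%. Its values were 6.84, 3.66 and 5.44 CPM in senescent MEFs, 17.3, 16.1 and 7.27 CPM at 100 µg/mL and 4.07, 12.2 and 9.50 CPM at 300 µg/mL. All samples at 100 µg/mL lay above all senescent ones, but the gap between the lowest of the former and the highest of the latter was narrow. Foxo1 did not pass against senescent MEFs at either dose, with a log2 fold change of 1.35 ± 0.57 at 100 µg/mL (adjusted p = 0.209) and 0.69 ± 0.57 at 300 µg/mL (adjusted p = 0.641). Against control MEFs it rose 3.44-fold at 100 µg/mL (adjusted p = 0.0364), a call that held in 13 of 19 alternatives. This call of Foxo1 was lost on leaving out control mouse 5 or 6 or mouse 4 or 5 of the treated group (adjusted p = 0.0774 to 0.119). At 300 µg/mL against control MEFs its log2 fold change was 1.12 ± 0.57 (adjusted p = 0.177).

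Of the receptor and its adaptors, Irs1 rose at senescence and again with Fucoidan-FV, Insr rose at both doses against control MEFs, and Irs2 passed in no comparison. Irs1 (chr1:82210822-82269338, minus strand), which carries the signal of the insulin and IGF1 receptors to PI3-kinase, measured 13.1, 12.1 and 10.7 CPM in control mice 4, 5 and 6 and 30.9, 27.6 and 16.6 CPM in senescent ones. Its values were 51.7, 54.8 and 72.6 CPM at 100 µg/mL and 58.0, 50.6 and 60.7 CPM at 300 µg/mL. The control, senescent and treated samples formed 3 ranges that did not overlap, and the 2 doses shared 1 range.

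Irs1 rose 2.10-fold from control to senescent MEFs (log2 fold change 1.07 ± 0.25, adjusted p = 0.0140) and a further 2.38-fold at 100 µg/mL (1.25 ± 0.25, adjusted p = 0.0159) and 2.25-fold at 300 µg/mL (1.17 ± 0.25, adjusted p = 0.0295). Against control MEFs the log2 fold change was 2.32 ± 0.26 at 100 µg/mL (adjusted p = 4.2e-05) and 2.24 ± 0.26 at 300 µg/mL (adjusted p = 6.1e-05). With the mouse as a block the call at 300 µg/mL against senescent MEFs was lost (adjusted p = 0.0555). It was also lost without mouse 4, 5 or 6 of that treated group (adjusted p = 0.0694 to 0.150), and the call at 100 µg/mL was lost without mouse 5 or 6 of its treated group (adjusted p = 0.0512 and 0.0611). Fits of only the 2 groups compared removed the calls at senescence and at both doses against senescent MEFs (adjusted p = 0.0668 to 0.110), as did offsets for single-transcript sequence, length and GC, with log2 fold changes of 0.83, 0.28 and 1.03 (adjusted p = 0.427 to 0.855). Against control MEFs these offsets gave 1.10 at 100 µg/mL (adjusted p = 0.232) and 1.86 at 300 µg/mL (adjusted p = 0.0566), and with the mouse as a block 1.09 and 2.03 (adjusted p = 0.246 and 0.0581), so both calls were lost there and held in the other 15 of 17 alternatives.

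Insr (chr8:3172061-3329647, minus strand), which encodes the insulin receptor, gave 18.2, 15.4 and 8.04 CPM in control mice 4, 5 and 6, and 20.1, 15.7 and 9.79 CPM in senescent ones. In the treated groups it measured 37.0, 41.6 and 28.6 CPM at 100 µg/mL and 21.5, 36.6 and 26.9 CPM at 300 µg/mL. Control and senescent samples covered nearly the same range, with mouse 6 lowest in both, and every treated sample was above every untreated one. Insr passed against control MEFs at 100 µg/mL (2.57-fold, adjusted p = 0.0118) and at 300 µg/mL (2.04-fold, adjusted p = 0.0465). The latter call held in 10 of 17 alternatives. Among its losses were the fits without control mouse 5 or 6, or without mouse 5 or 6 at 300 µg/mL (adjusted p = 0.0898 to 0.174). Against senescent MEFs the log2 fold change was 1.23 ± 0.35 at 100 µg/mL (adjusted p = 0.0651, 0.0489 with the mouse as a block, and 0.0335 with those offsets at a smaller log2 fold change of 0.62) and 0.90 ± 0.35 at 300 µg/mL (adjusted p = 0.225).

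Irs2 (chr8:11034681-11059499, minus strand), the second adaptor and a known FOXO target in liver, measured 16.2, 9.44 and 2.02 CPM in control mice 4, 5 and 6 and 7.16, 2.76 and 4.15 CPM in senescent ones. It gave 13.6, 18.2 and 4.36 CPM at 100 µg/mL and 2.52, 11.5 and 8.59 CPM at 300 µg/mL. Each pair of groups overlapped, with a coefficient of variation within a group of 48.0% to 77.0%. In the fit across all genes Irs2 passed in none of the 6 comparisons. Its log2 fold changes were −0.98 ± 0.73 for senescent against control MEFs (adjusted p = 0.455), 1.36 ± 0.73 at 100 µg/mL against senescent MEFs (adjusted p = 0.329) and 0.68 ± 0.72 at 300 µg/mL (adjusted p = 0.735).

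**Figure D2:**
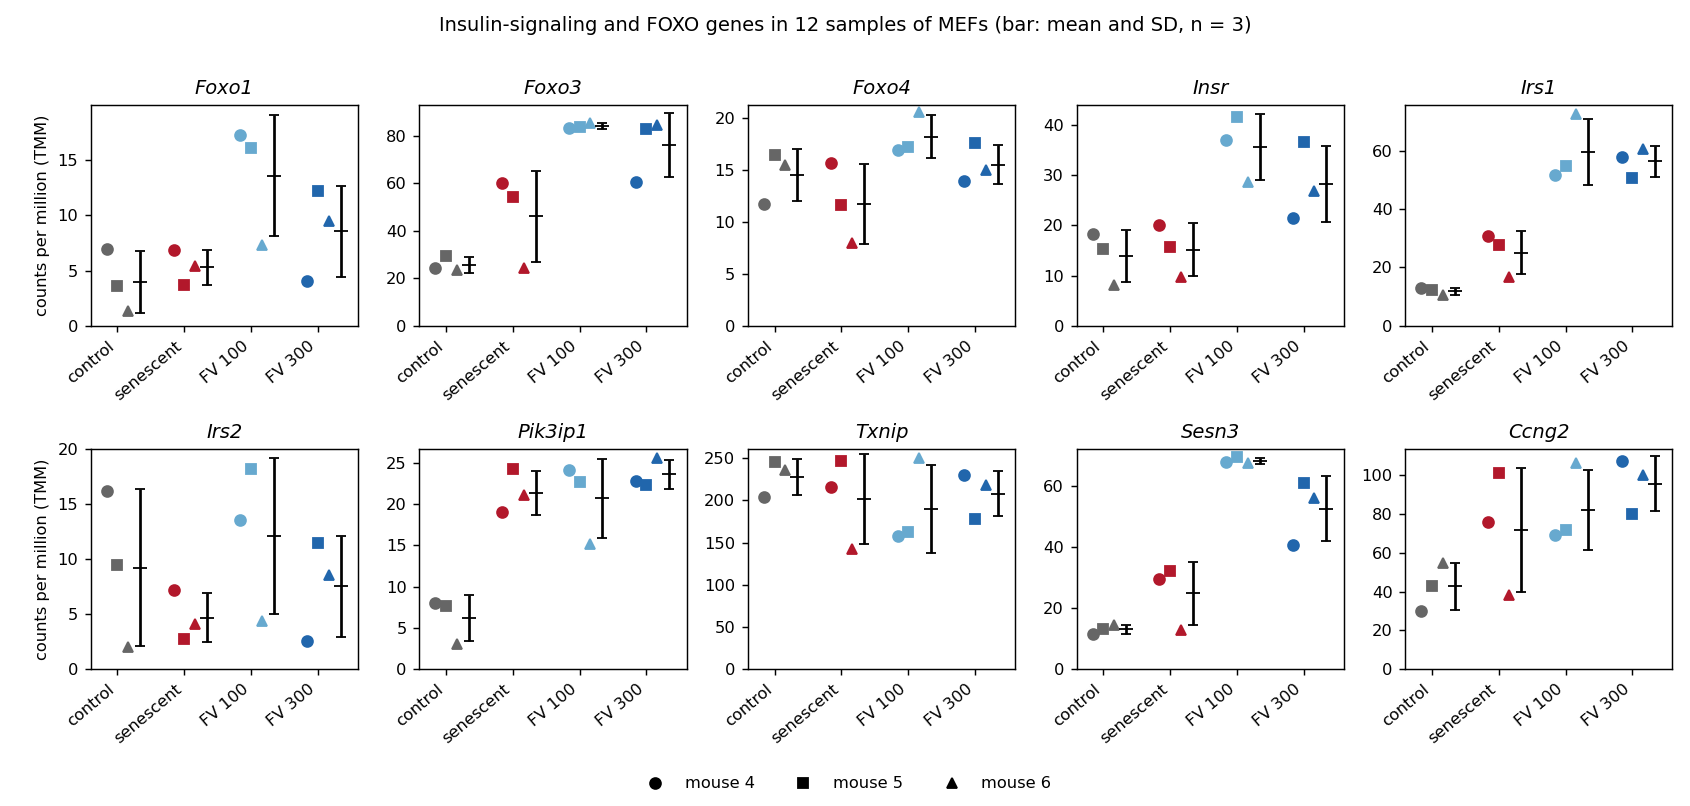
CPM, scaled by TMM factors (y axis, from 0), of each of the 10 genes in control MEFs, senescent MEFs and senescent MEFs with 100 or 300 µg/mL Fucoidan-FV (FV), with symbols for mice 4, 5 and 6 and black bars for the mean and SD of 3 samples. Irs1 forms 3 separate ranges, Pik3ip1 steps up once at senescence, Foxo3, Insr and Sesn3 are highest in the treated groups, and Txnip is level.

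Of the 4 target and brake genes, Pik3ip1 rose at senescence, Sesn3 rose with Fucoidan-FV, Ccng2 rose against control MEFs at both doses and Txnip passed in no comparison. Pik3ip1 (chr11:3280401-3292971, plus strand) encodes a membrane protein that binds the catalytic subunit of PI3-kinase and dampens it. It measured 8.03, 7.62 and 3.05 CPM in control mice 4, 5 and 6 and 19.0, 24.3 and 21.1 CPM in senescent ones. It then measured 24.1, 22.7 and 15.2 CPM at 100 µg/mL and 22.8, 22.3 and 25.6 CPM at 300 µg/mL. Every etoposide-exposed sample was above every control sample, and the 3 etoposide groups overlapped one another. Pik3ip1 rose 3.43-fold at senescence (log2 fold change 1.78 ± 0.34, adjusted p = 0.00444), a call that held in 17 of 17 alternatives. Against senescent MEFs its log2 fold change was −0.05 (95% interval −0.76 to 0.66) at 100 µg/mL and 0.14 (−0.57 to 0.85) at 300 µg/mL.

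Sesn3 (chr9:14186363-14244397, plus strand), one of the sestrins, which restrain mTORC1 and are induced by FOXO factors, gave 11.5, 13.1 and 14.5 CPM in control mice 4, 5 and 6. It gave 29.4, 32.2 and 12.9 CPM in senescent MEFs, 67.7, 69.2 and 67.4 CPM at 100 µg/mL and 40.5, 61.0 and 56.0 CPM at 300 µg/mL. Senescent mouse 6 again lay within the control range, every treated sample exceeded every untreated one, and the samples at 100 µg/mL all exceeded those at 300 µg/mL. Sesn3 rose 2.74-fold from senescent MEFs to 100 µg/mL (log2 fold change 1.46 ± 0.30, adjusted p = 0.0185), while at 300 µg/mL the log2 fold change was 1.08 ± 0.30 (adjusted p = 0.0881). Against control MEFs the rise was 5.24-fold (adjusted p = 0.000133) and 4.03-fold (adjusted p = 0.000438), the widest of the 10 genes at 100 µg/mL, and both calls held in 17 of 17 alternatives.

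The senescence step of Sesn3, with a log2 fold change of 0.93 ± 0.30, missed the threshold (adjusted p = 0.0605) and passed without senescent mouse 6 (1.25, adjusted p = 0.00254). The 2 libraries of control mouse 5 differed widely for this gene, with 61 expected counts in 5(1) and 605 in 5(2). Treating them as separate samples removed the call at 100 µg/mL against senescent MEFs (adjusted p = 0.190). So did either library alone (0.137 and 0.0515), a fit of only the 2 groups (0.0764) or leaving out mouse 4, 5 or 6 of the treated group (adjusted p = 0.0529 to 0.0678).

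Ccng2 (chr5:93415116-93424095, plus strand), an atypical cyclin that slows the cell cycle and a known FOXO target, measured 30.2, 43.0 and 54.6 CPM in control mice 4, 5 and 6 and 75.7, 101 and 38 CPM in senescent ones. Its treated values were 69.0, 71.6 and 106 CPM at 100 µg/mL and 107, 79.7 and 100 CPM at 300 µg/mL. Senescent mouse 6 lay inside the control range, and all treated samples were above that range. Ccng2 passed against control MEFs at 100 µg/mL (1.93-fold, adjusted p = 0.0462, but 0.0715 with the mouse as a block) and at 300 µg/mL (2.24-fold, adjusted p = 0.0195). Leaving out control mouse 4 or 5 or any treated mouse removed the first call (adjusted p = 0.0645 to 0.162), and leaving out control mouse 4 or treated mouse 4 or 6 removed the second (adjusted p = 0.0587 to 0.0608). The senescence step was 0.75 ± 0.32 on the log2 scale (adjusted p = 0.165), or 1.05 without senescent mouse 6 (adjusted p = 0.00974).

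Txnip (chr3:96465267-96469201, plus strand) encodes a thioredoxin-binding arrestin that promotes the removal of glucose transporters from the cell surface. Its RNA is known to follow glucose through the factor MondoA and to be raised by FOXO factors. It measured 204, 245 and 236 CPM in control mice 4, 5 and 6, 216, 247 and 143 CPM in senescent ones, 158, 163 and 250 CPM at 100 µg/mL and 230, 178 and 218 CPM at 300 µg/mL. All groups overlapped. Its log2 fold change was −0.18 (95% interval −0.68 to 0.32) at senescence, −0.08 (−0.58 to 0.41) at 100 µg/mL and 0.05 (−0.45 to 0.55) at 300 µg/mL against senescent MEFs. No interval reached a log2 difference of 1 in either direction. In the annotation used here, 19.5% of the exonic bases of Txnip are shared with Gm15441 on the opposite strand. Whether the counting used strand is not given in the sources used here, so reads of this pair cannot be told apart with certainty.

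Because the Txnip promoter is known for its FOXO and glucose-response elements, the 250 bases before its annotated start are shown with those before the starts of Irs1 and Sesn3, the genes that rose with Fucoidan-FV. The sequences were read 5′ to 3′ on the gene's strand from GRCm39, at chr3:96465017-96465266 (plus strand) for Txnip, chr1:82269339-82269588 (minus strand) for Irs1 and chr9:14187347-14187596 (plus strand) for Sesn3. The starts are those of the canonical transcript of each gene, and the windows searched for Sesn3 and Foxo3 lie inside their gene spans given above. Capitals mark the FOXO motif GTAAACA and the motif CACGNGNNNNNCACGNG, the paired E-box arrangement of carbohydrate-response elements, each searched on both strands.
Txnip: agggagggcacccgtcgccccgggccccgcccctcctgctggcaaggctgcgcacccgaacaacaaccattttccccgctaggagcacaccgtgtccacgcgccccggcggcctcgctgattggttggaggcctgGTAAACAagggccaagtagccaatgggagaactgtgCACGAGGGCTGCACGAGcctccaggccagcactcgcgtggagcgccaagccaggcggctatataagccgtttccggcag
Irs1: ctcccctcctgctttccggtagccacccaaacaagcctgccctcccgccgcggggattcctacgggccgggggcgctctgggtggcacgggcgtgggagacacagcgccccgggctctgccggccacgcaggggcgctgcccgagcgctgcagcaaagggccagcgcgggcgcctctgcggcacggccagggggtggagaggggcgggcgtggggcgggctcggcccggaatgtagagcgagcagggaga
Sesn3: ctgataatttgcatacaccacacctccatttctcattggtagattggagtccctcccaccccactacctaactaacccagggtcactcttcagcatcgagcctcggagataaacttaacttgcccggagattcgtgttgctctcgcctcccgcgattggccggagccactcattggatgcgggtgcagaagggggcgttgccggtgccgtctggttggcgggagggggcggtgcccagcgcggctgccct
Of the 10 genes, Txnip alone held GTAAACA in this window, starting 115 bases before the start, against 2.71% of 21664 protein-coding genes. It also held the E-box pair, starting 79 bases before the start, a motif found in 11 of the 21664 windows. The shorter core GTAAA, which lies inside GTAAACA, occurred once in the window of Insr, 4 times in that of Pik3ip1 and once in that of Txnip, and in 27.67% of all windows. The windows of Irs1 and Sesn3 held none of these motifs, which says nothing of FOXO binding elsewhere. Whether the motifs bear on the level of any of the 10 genes was not tested.

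Counted over the 10 genes, 2 rose from control to senescent MEFs (Irs1 and Pik3ip1), where 6.11% of the 15034 genes tested rose. None of the 10 fell there in the edgeR fit across all genes, at an unadjusted p under 0.05 or in DESeq2, while Irs2 fell in 4 alternatives described with the library effect below. At 100 µg/mL against senescent MEFs, Irs1 and Sesn3 rose, where 1.14% of all genes did, and at 300 µg/mL Irs1 rose, where 0.778% did. The median log2 fold change of the 10 genes was 0.59 at senescence, 1.05 at 100 µg/mL and 0.685 at 300 µg/mL, beside medians over all genes of 0.0717, −0.0187 and 0.000267. Without overlap, 6 of the 10 genes lay higher at 100 µg/mL than in senescent MEFs, as 11.2% of all genes did, and 4 did so at 300 µg/mL, as 9.41% of all genes did. The genes that did so at both doses were Foxo3, Insr, Irs1 and Sesn3, with a narrow margin at 300 µg/mL for Foxo3 and Insr.

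Against control MEFs, 7 of the 10 genes rose at 100 µg/mL (Foxo1, Foxo3, Insr, Irs1, Pik3ip1, Sesn3 and Ccng2), where 12.2% of all genes rose, and 6 rose at 300 µg/mL, the same genes without Foxo1, where 12.4% of all genes rose. None of the 10 fell in either comparison in the edgeR fit across all genes, at an unadjusted p under 0.05 or in DESeq2. These comparisons share their control samples with the senescence comparison and join the change at senescence with that after Fucoidan-FV, so they do not separate these steps.

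No gene of the 10 differed between 300 and 100 µg/mL in edgeR (all adjusted p = 0.970) or DESeq2, and none had an unadjusted p under 0.05 in edgeR, where 0.625% of all genes did and 0.00665% passed after adjustment. The log2 difference of 300 against 100 µg/mL was −0.08 (95% interval −0.61 to 0.45) for Irs1, −0.14 (−0.75 to 0.46) for Foxo3, −0.33 (−1.08 to 0.41) for Insr and −0.38 (−1.01 to 0.26) for Sesn3. For Sesn3 the samples of the 2 doses did not overlap, as was so for 2.45% of all genes in the same direction, but the difference did not pass the test. For Irs2 the interval ran from −2.23 to 0.87.

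**Figure D3:**
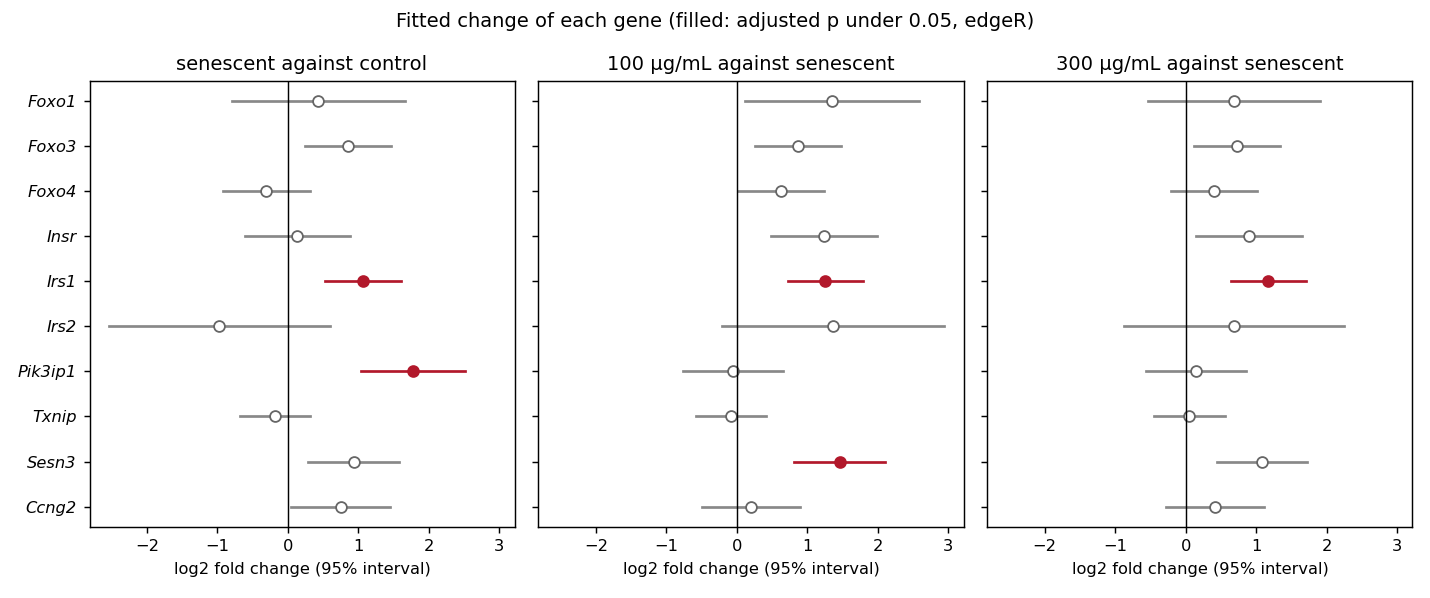
Fitted log2 fold change (x axis, with its 95% interval) of the 10 genes in senescent against control MEFs and in each Fucoidan-FV dose against senescent MEFs, filled in red where the adjusted p was under 0.05. Irs1 passes in all 3 panels, Pik3ip1 at senescence and Sesn3 at 100 µg/mL, and the intervals of Irs2 and Foxo1 are the widest.

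The wide spread of Foxo1 and Irs2 moved with a property of the libraries. Both genes have a single transcript in the deposited files. The 675 genes of this kind with whole-number counts in every library and a mean of at least 1 CPM deviated together from sample to sample, with a median log2 deviation of −1.41 in control mouse 6, −0.99 in senescent mouse 5, −1.14 in mouse 4 at 300 µg/mL and 1.04 in mouse 5 at 100 µg/mL. Irs2, which is one of them, deviated by −1.52, −1.15, −1.26 and 1.37 in the same samples, and Foxo1 by −1.94, −0.74, −0.61 and 1.25. Over the 12 samples the correlation with the class median was 0.91 for Irs2 and 0.84 for Foxo1, against 0.19 for Irs1. Irs1 also has 1 transcript, with fractional counts in all 13 libraries, and Foxo1 has fractional counts in 10 of them. For the other genes the correlation with the class median ran from −0.72 for Txnip and −0.34 for Ccng2 to 0.37 for Pik3ip1 and 0.57 for Insr. The 2 libraries of control mouse 5, which come from the same animal, differed in the same way, with a class median of −1.188 in 5(1) and 0.863 in 5(2) over 726 genes.

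An alternative chosen after seeing the data was fitted to 1032 genes. These were Foxo1 and the tested genes of 1 transcript with whole counts, without the minimum of 1 CPM. In this fit Irs2 fell by 0.93 on the log2 scale from control to senescent MEFs (adjusted p = 0.0233), where it had not passed among all genes. Calls were more frequent there, with 124 of the 1032 genes lower at senescence, and with the offsets 1724 of 15034, beside 847 of 15034 in the main fit. Irs2 passed in 4 of 19 alternatives, and in none that left out a mouse. The 4 were the fit of 1032 genes and the offsets for single-transcript sequence, length and GC, each fitted once with and once without mouse terms (−0.93 to −0.95, adjusted p = 0.0109 to 0.0379). In the fit of 1032 genes the Foxo1 difference at 100 µg/mL against senescent MEFs was 0.48 (adjusted p = 0.191), and Foxo1 passed against control MEFs at both doses (0.91, adjusted p = 0.00944, and 1.05, adjusted p = 0.00434). Against control MEFs 225 and 209 of the 1032 genes rose in that fit, beside 1841 and 1864 of 15034 in the main fit. The size of the Foxo1 and Irs2 differences with Fucoidan-FV therefore depended on which genes the libraries were scaled to, and at 100 µg/mL against senescent MEFs Irs2 went from 1.36 to 0.43.

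**Figure D4:**
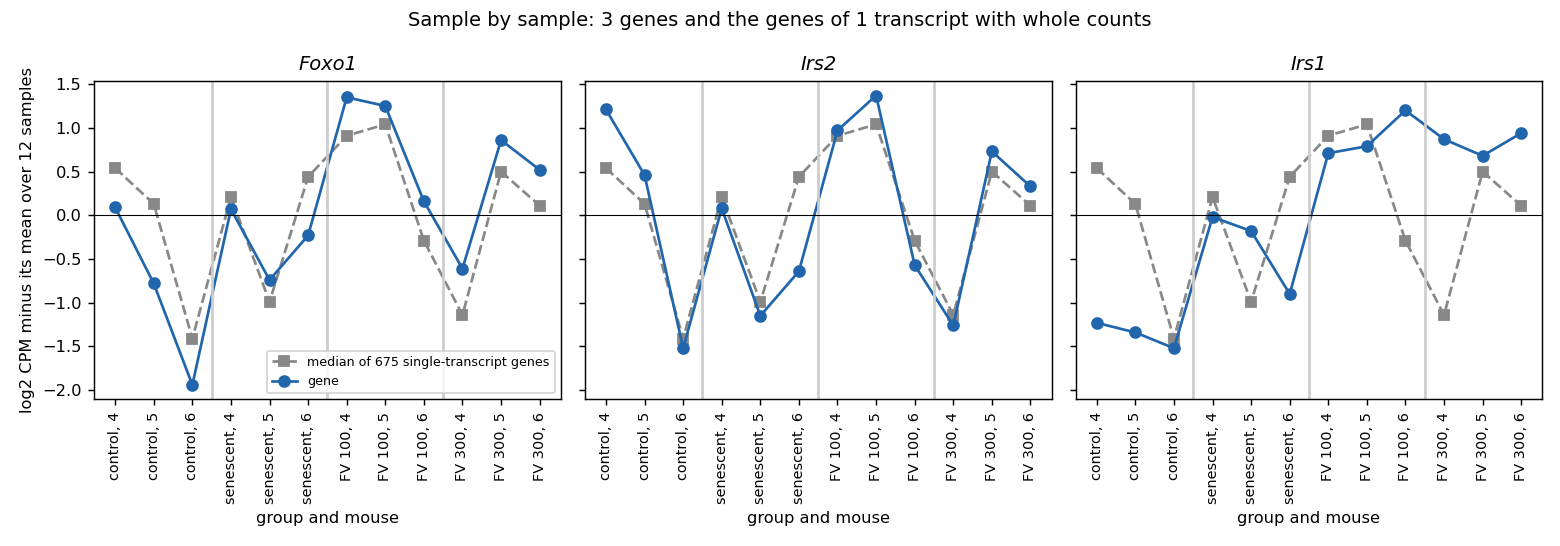
Log2 CPM of Foxo1, Irs2 and Irs1 minus its mean over the 12 samples (y axis, blue) in each sample (x axis, group and mouse), with the median of 675 genes of 1 transcript and whole counts (grey, dashed). Foxo1 and Irs2 follow the grey line, with correlations of 0.84 and 0.91, and Irs1 does not, with 0.19.

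Foxo3, Irs1 and Sesn3 had nearly the same pattern over the 12 samples, with Pearson correlations of log2 CPM of 0.98 for Foxo3 with Sesn3, 0.96 for Irs1 with Sesn3 and 0.95 for Foxo3 with Irs1. These are descriptions, since the samples fall into groups and share library effects. Among all genes of at least 1 CPM, Sesn3 was most like Itga1, an integrin subunit (0.987), then Foxo3 itself and Crebrf (both 0.980). Foxo3 was most like Susd6 (0.988), Crebrf (0.986) and Cpt1a, which admits fatty acids to mitochondria (0.981). Irs1 was most like Slc24a3 (0.992), Cped1 (0.990) and Tmtc1 (0.989). Insr was most like the large membrane proteins Fat4 (0.987) and Lrp1 (0.985), and then Tbc1d2b (0.978). Pik3ip1 was most like Tcea3 (0.968), Tmem140 (0.960) and Fxyd6 (0.959), and Ccng2 like Nbr1 and Col4a5 (both 0.985) and Mfap1b (0.984). Foxo4 had the weakest likeness, with Zfp266 at 0.898, Gfpt1 at 0.878 and Kdm5a at 0.877. Txnip was most like Srp72 (0.957), Myo9b (0.953) and Gm44505 (0.945). Foxo1 went with Norad, Klhl9 and Wasf3 (0.986 to 0.983) and Irs2 with Map3k3, Rtf1 and Zfp948 (0.989 to 0.985), which have 1 to 4 transcripts in the files.

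Few of the other genes of the pathway passed in edgeR, and the share that passed was near that of all genes. Of 153 further genes in 7 lists, 144 were tested, and 8 rose and 8 fell at senescence, or 11.1%, where 11.7% of all genes passed. At 100 µg/mL against senescent MEFs 3 rose and 4 fell, or 4.86%, where 4.02% of all genes passed, and at 300 µg/mL 2 rose and 1 fell, or 2.08%, where 1.9% did. None of the 144 passed between the doses in edgeR, where 1 had an unadjusted p under 0.05, or in DESeq2. Against senescent MEFs, 40 of the 144 at 100 µg/mL and 33 at 300 µg/mL had an unadjusted p under 0.05 in edgeR. Of all 15034 genes, 2981 and 2297 did, and at senescence 3818 did, beside 34 of the 144. By unadjusted p the share among the 144 was thus larger than among all genes at both doses and slightly smaller at senescence. This difference in share was not tested. DESeq2 called 16 and 15 of the 144 at these doses. Over all genes it called 641 higher and 764 lower of 15059 at 100 µg/mL, and 459 and 532 of 15586 at 300 µg/mL. The counts of single lists below stand beside these.

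Among 21 genes of the relay from receptor to AKT, none passed at senescence in edgeR, where 1 had an unadjusted p under 0.05, or in DESeq2. In the comparisons with senescent MEFs, 7 at 100 µg/mL and 4 at 300 µg/mL had an unadjusted p under 0.05 in edgeR. DESeq2 called 3 higher and 1 lower at each dose. At 100 µg/mL Sgk1, a kinase related to AKT that also phosphorylates FOXO proteins, fell from 291 ± 55.3 CPM to 94.9 ± 2.55 CPM (n = 3, log2 fold change −1.62 ± 0.30, adjusted p = 0.0112). At 300 µg/mL it fell to 120 ± 55.1 CPM (−1.28 ± 0.30, adjusted p = 0.0442). Pik3r3, a regulatory subunit of PI3-kinase, rose at 100 µg/mL from 16.3 ± 4.37 to 38.1 ± 7.24 CPM (1.23 ± 0.27, adjusted p = 0.0265, and 0.0508 with the mouse as a block). Of 17 alternatives, 14 kept the Sgk1 call at 100 µg/mL, 10 kept it at 300 µg/mL (adjusted p up to 0.215) and 11 kept that of Pik3r3 (up to 0.0868). The median log2 fold change of the relay was −0.0368 at senescence, 0.165 at 100 µg/mL and 0.231 at 300 µg/mL.

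Of 20 brakes on this relay, Grb14, an adaptor that binds and inhibits the insulin receptor, rose at senescence from 15.5 ± 10.5 to 42.1 ± 7.95 CPM (log2 fold change 1.45 ± 0.40, adjusted p = 0.0320). Phlpp2, a phosphatase of AKT, fell from 32.8 ± 13.8 to 16 ± 3.82 CPM (−1.04 ± 0.31, adjusted p = 0.0431, and 0.0849 with the mouse as a block). These calls of Grb14 and Phlpp2 held in 13 and 9 of 17 alternatives. None of the brakes passed in edgeR at either dose against senescent MEFs, where 3 at 100 µg/mL and 1 at 300 µg/mL had an unadjusted p under 0.05 and DESeq2 called 1 higher at each. In the mTORC1 branch of 26 genes, Ddit4l, an inhibitor of mTORC1, rose at senescence from 1.83 ± 1.21 to 8.78 ± 1.78 CPM (2.25 ± 0.51, adjusted p = 0.0115). The translation repressor Eif4ebp2 fell there from 90.6 ± 12 to 43.8 ± 8.35 CPM (−1.05 ± 0.20, adjusted p = 0.00434). Eif4e, the cap-binding factor it holds, fell from 112 ± 10.4 to 73.5 ± 12.4 CPM (−0.61 ± 0.17, adjusted p = 0.0355, and 0.0607 with the mouse as a block). The calls of Ddit4l, Eif4ebp2 and Eif4e held in 16, 15 and 10 of 17 alternatives. None of the 26 passed in edgeR at either dose against senescent MEFs, where 8 and 6 had an unadjusted p under 0.05, while DESeq2 called 3 at 100 µg/mL and 2 at 300 µg/mL.

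Of 42 other known FOXO target genes, 36 were tested, and 4 rose and 1 fell at senescence, where 6.11% of all genes rose. Against senescent MEFs, 2 rose at 100 µg/mL and the same 2 at 300 µg/mL, where 1.14% and 0.778% of all genes rose. At each of these doses, 13 of the 36 had an unadjusted p under 0.05 in edgeR and DESeq2 called 4 higher. Against control MEFs 10 rose at each dose, where 12.2% and 12.4% of all genes rose, and 1 fell at 100 µg/mL. At senescence Cdkn1a rose from 468 ± 83.2 to 1650 ± 187 CPM (log2 fold change 1.82 ± 0.18, adjusted p = 6.8e-05), while Cdkn1b, the related inhibitor p27, fell from 41.9 ± 10.8 to 15.6 ± 4.63 CPM (−1.43 ± 0.31, adjusted p = 0.00937). The 2 that rose with Fucoidan-FV against senescent MEFs were Selenop and Cdkn1c. Selenop, the selenium-carrying plasma protein, went from 5.93 ± 2.16 CPM in control to 17.0 ± 1.82 CPM in senescent MEFs (adjusted p = 0.0327, and 0.0557 with the mouse as a block). It then stood at 87.5 ± 54.1 CPM at 100 µg/mL (2.36 ± 0.42, adjusted p = 0.00956) and 87.1 ± 32.4 CPM at 300 µg/mL (2.35 ± 0.42, adjusted p = 0.0140). Cdkn1c, the inhibitor p57, rose from 34.2 ± 3.95 CPM in senescent MEFs to 86.2 ± 11.7 CPM at 100 µg/mL (1.34 ± 0.20, adjusted p = 0.00448) and 107 ± 16.1 CPM at 300 µg/mL (1.64 ± 0.20, adjusted p = 0.00175).

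The list's median log2 fold change was 0.147 at senescence, and against senescent MEFs it was 0.452 at 100 µg/mL and 0.145 at 300 µg/mL. Trim63 and Ppargc1a, a muscle ubiquitin ligase and a coactivator of mitochondrial genes that were singled out after their values were seen, had the largest estimates with Fucoidan-FV. They did not pass against senescent MEFs and passed against control MEFs at both doses (adjusted p = 0.0421 and 0.0362 for Trim63, and 0.0253 and 0.0203 for Ppargc1a). Both are at the floor of detection, with 0 counts of Trim63 in all 7 control and senescent libraries and 0 to 23 counts at 100 µg/mL and 8 to 29 at 300 µg/mL, and with 0 to 2 counts of Ppargc1a in the untreated libraries and 5 to 16 and 1 to 29 in the treated ones.

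Of 26 modifiers and partners of the FOXO proteins, 1 rose and 3 fell at senescence and none passed in edgeR at either dose against senescent MEFs. Of these, 5 at 100 µg/mL and 5 at 300 µg/mL had an unadjusted p under 0.05 and DESeq2 called 1 lower at each. Mdm2, a ubiquitin ligase of p53 and FOXO proteins, rose from 166 ± 56.3 to 481 ± 127 CPM (log2 fold change 1.53 ± 0.25, adjusted p = 0.00174). Skp2, a ubiquitin ligase subunit that marks FOXO1 and p27, fell from 49.8 ± 2.37 to 8.24 ± 1.23 CPM (−2.60 ± 0.27, adjusted p = 7.66e-05), and Cdk2, a kinase of cycling cells, fell from 57.9 ± 6.65 to 18.7 ± 3.46 CPM (−1.63 ± 0.24, adjusted p = 0.000746). Both fell in the samples where the proliferation markers given above were low, and the part of proliferation in their change was not tested.

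Around Txnip, 13 of 14 genes were tested, of which 1 fell at senescence and 3 fell at 100 µg/mL against senescent MEFs. Txnrd1, thioredoxin reductase, fell at senescence from 882 ± 188 to 403 ± 89.5 CPM (log2 fold change −1.13 ± 0.20, adjusted p = 0.00275) and fell again at 100 µg/mL to 215 ± 12.7 CPM (−0.90 ± 0.20, adjusted p = 0.0265, and 0.0533 with the mouse as a block). At the same dose the mitochondrial thioredoxin Txn2 fell from 172 ± 56.0 to 91.5 ± 6.46 CPM (−0.91 ± 0.21, adjusted p = 0.0292), and Slc2a1, the glucose transporter GLUT1, fell from 207 ± 4.05 to 132 ± 1.83 CPM (−0.65 ± 0.15, adjusted p = 0.0355, and 0.0623 with the mouse as a block). Of 17 alternatives, 11 kept the call of Txn2 at this dose (adjusted p up to 0.168), 7 that of Txnrd1 (up to 0.135) and 4 that of Slc2a1 (up to 0.170). None of the 13 passed in edgeR at 300 µg/mL against senescent MEFs, where 4 had an unadjusted p under 0.05 and DESeq2 called 3 lower. Of 11 paralogues of the 10 genes, 8 were tested and 1 passed at senescence. Ccng1, the cyclin G that p53 induces, rose from 128 ± 41.6 to 322 ± 91.2 CPM (1.33 ± 0.36, adjusted p = 0.0285). The call held in 10 of 17 alternatives. None of the paralogues passed in edgeR at either dose against senescent MEFs, where 2 and 2 had an unadjusted p under 0.05 and DESeq2 called 1 higher at 300 µg/mL.

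**Figure D5:**
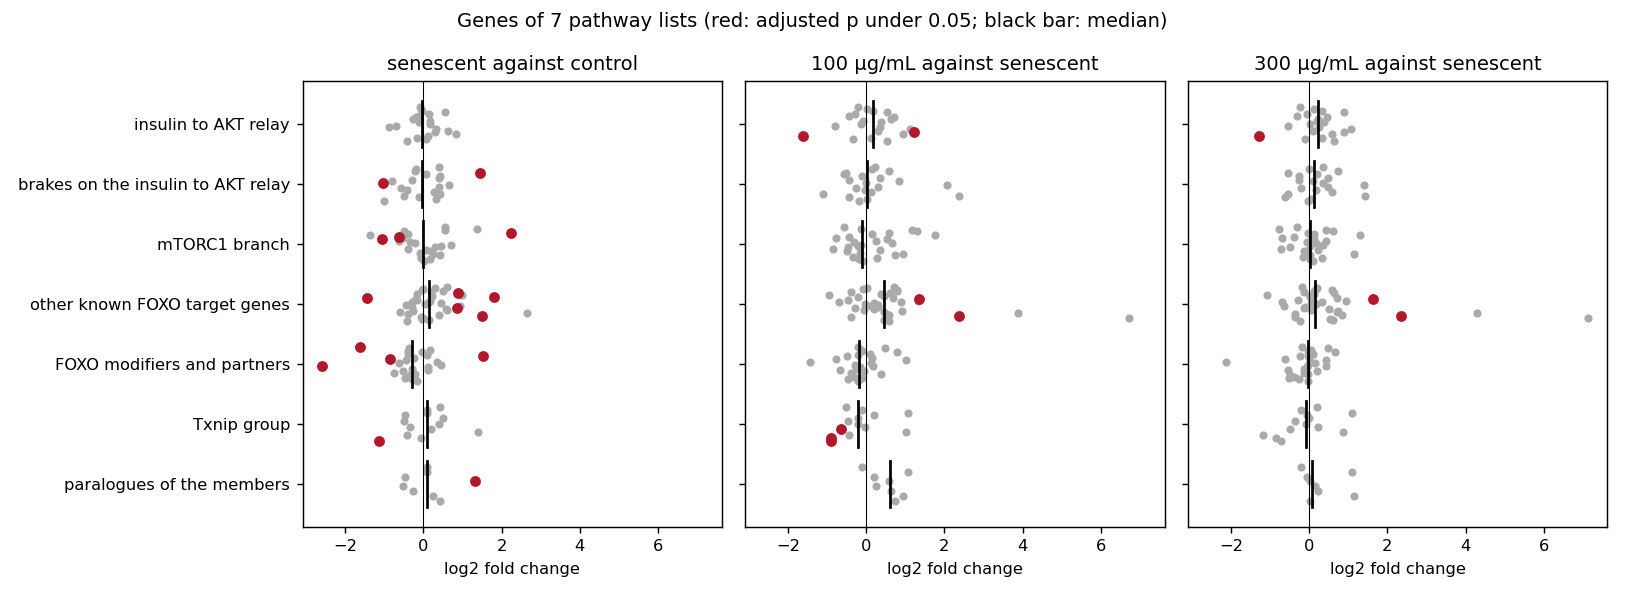
Fitted log2 fold change (x axis) of every tested gene of 7 pathway lists (rows) in the same 3 comparisons, with red points for an adjusted p under 0.05 and a black bar at each list's median. Most genes lie near 0, Sgk1 is the red point on the left of the relay at both doses, and the 2 grey points far to the right among the FOXO targets are Trim63 and Ppargc1a, which rest on few counts.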

How the data were processed

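Total RNA of MEFs was sequenced with a stranded library kit, and 13 libraries of 12 samples were analysed. The authors trimmed the reads with Trimmomatic, aligned them to GRCm39 with STAR 2.7.11b and deposited expected counts per gene from RSEM 1.3.1, without normalization, with tools and versions per the labels. The TPM values that RSEM gave were deposited by the authors in the same files, normalized for length and library size, and were used only for levels. Whether counting used strand is not given in the sources used here.

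Expected counts were rounded, libraries 5(1) and 5(2) were summed, and filterByExpr removed genes of low count (minimum 10, total 15). The quasi-likelihood test of edgeR 4.0.16 in R 4.3.3 was run with TMM scaling on all 4 groups at once, and p-values were adjusted by Benjamini-Hochberg over 15034 genes in each of 6 comparisons. A gene passed at an adjusted p under 0.05, and CPM values use the TMM factors. Same-numbered samples come from the same mouse by the labels, so the mouse was tried as a block. Their deviations from group means correlated with a median of −0.0166 over 18 pairs (−0.302 to 0.624), and 8 pairs exceeded 0.1. Alternatives were DESeq2 1.42.0, RLE factors, other filters, 2-group fits, other uses of libraries 5(1) and 5(2), left-out mice, and offsets for length, GC and the share of a gene's sequence (31-base words) found in 1 transcript. Promoter windows come from canonical GENCODE transcripts. Named genes are the 10 genes, up to 3 passing genes of largest change per list in the senescence comparison and in each dose against senescent MEFs, and the 3 most alike genes. The genes and lists were chosen with earlier results of these data known. The authors' combined count table was not used, and no sequencing batch is labelled.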

Additional observations from a re-analysis of the deposited data

How the results depend on the processing

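Of 1044 combinations of gene, comparison and alternative, 966 kept their call or lack of one, 48 lost a call, 29 gained one and 1 turned direction. The 966 include combinations without a call in either fit, and in 44 of these the sign changed. A call could be lost only where the main fit had made one, which was so for 0 to 7 of the 10 genes in each comparison. The number of the 10 genes passing in senescent against control MEFs, at 100 µg/mL and at 300 µg/mL against senescent MEFs was 2, 2 and 1. It became 4, 4 and 2 with DESeq2, 4, 4 and 2 without a filter beyond 1 count, and 1, 0 and 0 in fits of only the 2 groups compared. The number of calls over all genes moved the same way. At 100 µg/mL against senescent MEFs, 171 rose and 434 fell of 15034 genes tested. DESeq2 called 641 and 764 of 15059 there, the fit without that filter 624 and 520 of 27238, and the 2-group fit 93 and 77 of 14400. For the 10 genes the count in that comparison was 1 with libraries 5(1) and 5(2) as separate samples and 1 with either alone. With 1 mouse left out the 3 counts ran from 2 to 5, from 0 to 2 and from 0 to 1. The highest, 5, came without senescent mouse 6, where 1423 of 15490 genes rose and 1261 fell. The 0 at 100 µg/mL came without treated mouse 5 or 6. With the mouse as a replicate block the count at 300 µg/mL against senescent MEFs was 0, Insr gained its call at 100 µg/mL, Ccng2 lost its call at 100 µg/mL against control MEFs, and no other call of the 10 genes changed. Offsets for single-transcript sequence, length and GC together with the block turned Irs1 at 100 µg/mL against senescent MEFs to −0.01 (adjusted p = 0.996), and the cause was not tested. Foxo1 had 28 to 553 counts a library.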
